A study of Homo sapiens with 15 samples.

Results

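The G1/S and DNA replication genes described here are 47 genes whose products bring a cell into S phase and copy its DNA. They were chosen by name, with earlier results of these data known, and all 47 were found among the 23368 genes of the count table. RNA-seq had been done on 3 breast cancer clones, each grown from a single cell and carrying a doxycycline-inducible RBM47 transgene. RBM47 is an RNA-binding protein. WT6 and WT10 cells carried wild type RBM47, and MUT3 cells carried RBM47-I281fs, a frameshift mutant. Each clone was cultured with 0, 1, 2.5, 5 and 25 ng/ml doxycycline, and 1 poly(A)-selected library was sequenced per clone and dose. The labels place all 3 clones in the MDA231 line, whereas the methods of the study derive WT6 from CN34-BrM2, another brain metastatic breast cancer line. KRT7, a keratin of simple epithelia, ranged from 41311 to 72761 normalized counts in WT6, from 99.3 to 176 in WT10 and did not exceed 25.1 in MUT3, so WT6 stood apart from the other clones in this marker. The epithelial keratins KRT8 and KRT18 and the mesenchymal VIM were high in all 3 clones, at 8159 normalized counts or more, while PTPRC of leukocytes and PECAM1 of endothelium reached at most 6.18 and 9.19. Each RBM47 form was thus represented by 1 or 2 clones, and a clone cannot be told apart from what it carries. No library without the transgene enters the comparison, and all cells of a dosed library had received the antibiotic itself.

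DNA replication is prepared in G1, when CDC6 and CDT1 load the MCM2 to MCM7 ring on DNA, and starts when cyclin E and the E2F factors have brought the cell into S phase. CDC45 and the GINS complex then turn the ring into a moving helicase, the polymerases alpha, delta and epsilon copy both strands, and PCNA, its loader RFC, the nuclease FEN1 and the ligase LIG1 complete them. Ribonucleotide reductase and the thymidine enzymes supply nucleotides, CAF-1 packs the new DNA into chromatin, and TIMELESS, TIPIN and CLSPN guard the fork. Many of these genes are known E2F targets, so their mRNAs tend to be high in cycling cells and low in resting ones. In a bulk library a smaller share of cells in S phase and less mRNA per cell cannot be told apart.

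The promoters of the genes were described first. RefSeq promoters (GRCh38.p14, 250 bases before to 50 bases after each start, 300 in all) were searched on both strands for an E2F site, TTTGGCGC or TTTCGCGC, and for a CCAAT box, CCAAT. The 2 E2F forms can overlap each other on opposite strands. Of the 47 genes, 41 had a promoter of this length, and 14 of these, or 34.1%, held an E2F site, against 1.4% of the 27305 genes with a promoter. A CCAAT box was present for 24 of the 41 genes, or 58.5%, against 39.7% of all genes. The 150 bases before the start are shown for 5 genes, 2 helicase subunits, the catalytic polymerase alpha subunit and both E2F factors, with the E2F site in capitals. They were picked after their values were seen, because genes with such a site were called in different clones below.
MCM6 (chr2:135876444-135876593, minus strand): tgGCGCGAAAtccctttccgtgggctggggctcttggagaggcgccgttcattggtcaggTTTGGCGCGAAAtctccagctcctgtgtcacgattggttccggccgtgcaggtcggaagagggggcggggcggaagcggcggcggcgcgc
MCM7 (chr7:100101398-100101547, minus strand): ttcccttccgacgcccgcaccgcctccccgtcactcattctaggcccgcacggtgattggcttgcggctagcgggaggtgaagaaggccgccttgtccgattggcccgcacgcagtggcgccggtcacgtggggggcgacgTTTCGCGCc
POLA1 (chrX:24693768-24693917, plus strand): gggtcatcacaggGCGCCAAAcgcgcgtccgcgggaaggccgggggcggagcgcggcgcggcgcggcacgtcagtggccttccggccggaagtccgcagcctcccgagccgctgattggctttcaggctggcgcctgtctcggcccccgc
E2F1 (chr20:33686386-33686535, minus strand): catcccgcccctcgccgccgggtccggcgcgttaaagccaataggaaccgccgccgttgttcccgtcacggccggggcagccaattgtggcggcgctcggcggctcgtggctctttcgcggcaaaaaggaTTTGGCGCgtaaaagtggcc
E2F2 (chr1:23531234-23531383, minus strand): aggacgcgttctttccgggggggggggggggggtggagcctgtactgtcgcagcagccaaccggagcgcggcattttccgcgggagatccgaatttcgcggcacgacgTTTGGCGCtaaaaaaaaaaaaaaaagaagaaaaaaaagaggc
The first whole site in the letters shown began 148 bases before the start of MCM6, 9 before that of MCM7, 137 before that of POLA1, 20 before that of E2F1 and 42 before that of E2F2. A match gives letters only, not a bound factor.

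RBM47 was induced in all 3 clones. Normalized counts are reads on a gene divided by the DESeq size factor of the library. RBM47 stood at 258, 3137, 8094, 3966 and 10425 normalized counts in WT6 at 0, 1, 2.5, 5 and 25 ng/ml, at 168, 827, 2822, 8134 and 19877 in WT10, and at 73.8, 92.1, 336, 949 and 22084 in MUT3. The WT6 library at 5 ng/ml thus held less RBM47 mRNA than the one at 2.5 ng/ml. MUT3 held less of it than either wild type clone up to 5 ng/ml and more than both at 25 ng/ml. These counts do not give protein. The study found little mutant protein despite ample mRNA, and none on blots of a non-clonal inducible line, and took the mutant as unstable and inactive. Libraries held between 14955172 and 44771871 reads on genes, and the lowest read number of any of the 47 genes in any library was 75, for E2F2 in MUT3. All genes were thus well covered, but no condition had a replicate. On hg19, MCM7 lies at chr7:99689856-99699563 and POLA1 at chrX:24711990-25015103, SLBP at chr4:1694458-1714071 and E2F2 at chr1:23832930-23857725. Of the 47 genes, 26 overlap an annotated gene on the opposite strand, among them MCM7 (AP4M1), MCM2 and RPA1, and 13 one on the same strand. Whether the libraries kept the strand is not given in the sources used here, so reads of opposite-strand neighbours cannot be told apart from their own. Reads that HTSeq tallied as ambiguous made up at most 0.617% of a library. How reads of same-strand neighbours were assigned was not tested.

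Most of the 47 genes were lower at 25 ng/ml than without doxycycline in the wild type clones, and were evenly spread in MUT3. In WT6 42 of the 47 genes were below their untreated level at 25 ng/ml, with a median ratio of 0.677, from 0.354 for POLA1 to 1.37 for SLBP. In WT10 40 of the 47 were below it, with a median ratio of 0.824, from 0.530 for E2F2 to 1.36 for SLBP. In MUT3 26 were below it, with a median of 0.998 and a lowest ratio of 0.753 for GINS4. Over all genes the median ratio at this dose was 1.01 in WT6, 0.990 in WT10 and 1.01 in MUT3, and 49.1%, 51.6% and 45.7% were below their untreated level. Genes below 0.8 times their untreated level at 25 ng/ml numbered 33 of 47 in WT6, 22 in WT10 and 1 in MUT3, against 32%, 20.9% and 5.42% of all genes.

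The course over the doses differed between the wild type clones. In WT6 39 of the 47 genes were already below the untreated level at 1 ng/ml, against 52.9% of all genes. They were below it by little, with a median ratio of 0.959, and the median went to 0.928 and 0.907 at the next doses. For WT10 29, 22 and 26 of the 47 genes were below the untreated level at 1, 2.5 and 5 ng/ml, against 52.6%, 51.1% and 52.5% of all genes. The medians were 0.984, 1.01 and 0.980, so that the lower levels in WT10 appeared mainly at 25 ng/ml. Genes that went down at every step of the dose numbered 12 in WT6 and 12 in WT10, against 8.76% and 9.63% of all genes. MCM2, MCM5, MCM7, POLE, RPA1 and CHAF1A did so in both clones. In MUT3 only GINS4 did so among the 47, against 0.989% of all genes.

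**Figure D1:**
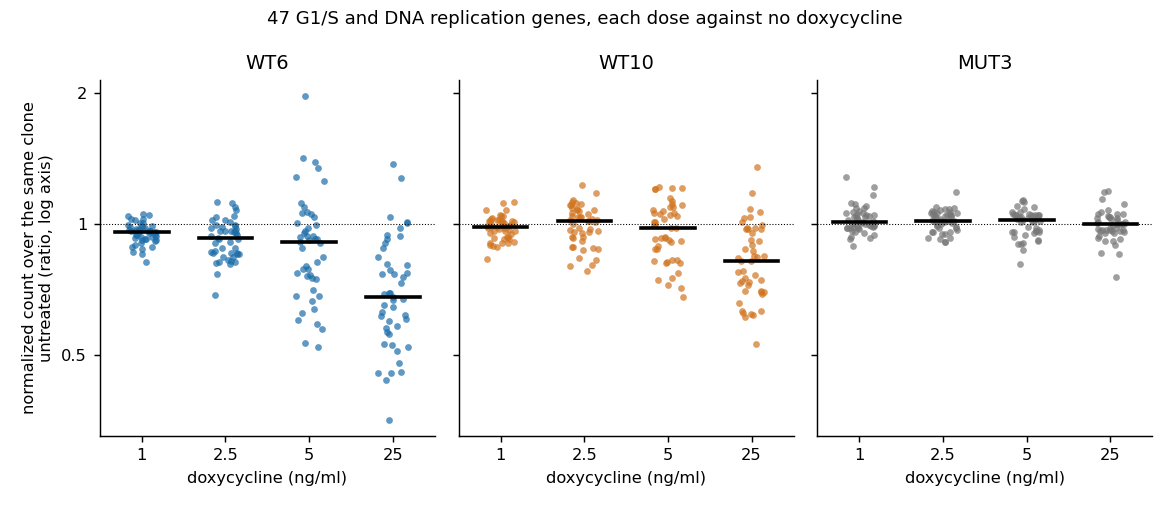
Ratio of the normalized count at each doxycycline dose (ng/ml) to the same clone without it, on a log axis, for the 47 genes in WT6, WT10 and MUT3. Each point is 1 gene in 1 library and the black bar is the median over genes. At 25 ng/ml the medians were 0.677, 0.824 and 0.998.

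To test the change over the whole dose range, a slope on log2(dose + 1) was fitted for each clone with limma, on log2(normalized count + 1), over all genes with a mean of at least 10 in each clone. The slope is the change of log2(normalized count + 1) per unit of log2(dose + 1), and the axis runs from 0 to 4.70 at 25 ng/ml. All 47 genes were among the 12644 tested. The error comes from the scatter of single libraries around the dose lines of the clones, so it holds no variation between repeated cultures of a dose. In WT6 32 of the 47 genes fell at an adjusted p under 0.05 and 1 rose, against 28.3% of all genes that fell and 29.2% that rose. In WT10 20 fell and 1 rose, against 9.83% and 10.2%. In MUT3 limma called none of the 47 genes and 0% of all genes, while 1 of the 47, GINS4, and 295 of the 12644 had an unadjusted p under 0.05. edgeR and DESeq2 on the recovered reads also called 0 of the 47 in MUT3, each with 1 at an unadjusted p under 0.05. RBM47 itself, at 73.8 normalized counts in untreated MUT3 and 22084 at 25 ng/ml, was not called there by limma either. Its MUT3 slope had an adjusted p of 0.0517 and an unadjusted p of 8.18e-06 (limma). The limma call thus missed the induced gene, so 0 calls in MUT3, here and below, do not show that levels were unchanged. The median slope of the 47 genes was -0.11 in WT6, -0.06 in WT10 and -0.01 in MUT3, against 0.01, -0.00 and 0.00 over all genes tested.

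Both counts rested on the highest dose, and so did those over all genes. Without the WT6 library at 25 ng/ml 15 of the 47 fell in WT6, against 2175 of all 12602 genes. The median WT6 slope of the 47 was then -0.068. Without the WT10 library at 25 ng/ml limma called 0 of the 47 in WT10, where 10 had an unadjusted p under 0.05. In that fit 0 of all 12633 genes fell in WT10, and the median WT10 slope of the 47 was -0.006. Without the WT10 library at 1 ng/ml 13 of the 47 fell in WT10 and none rose, against 795 and 877 of all 12648 genes. With the RBM47 count, or any doxycycline against none, in place of the dose, limma called 0 of the 47 in either clone, with 21 and 13, and 2 and 1, at an unadjusted p under 0.05. Of all 12644 genes 0 fell in WT6 and 13 in WT10 with the RBM47 count. With any doxycycline against none 0 fell in either.

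Of the 47 genes, 19 fell in both wild type clones. These were 19 of the 32 in WT6 and 19 of the 20 in WT10, against 7.34% of all genes tested that fell in both. They held MCM2, MCM3, MCM5, MCM7, MCM10, CDC45 and CDT1 of the helicase and its loading, POLA1, POLD1, POLE, FEN1, LIG1 and RPA1 of the fork, RRM2 and TK1 of nucleotide supply, and CHAF1A, E2F2, TIMELESS and UNG. A further 13 fell in WT6 alone at this threshold, against 21% of all genes, and RPA2 in WT10 alone, against 2.49%. In WT6 RPA2 just missed the threshold (limma, adjusted p = 0.0546). Neither clone gave a fall for 14 genes, against 69.2%, among them PCNA, the clamp loader subunits RFC2, RFC3 and RFC4, E2F1 and CCNE1.

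Licensing and the helicase. Of 14 genes, 12 fell in WT6 and 7 in WT10, against 28.3% and 9.83% of all genes, and 0 in MUT3. Median slopes were -0.12 in WT6 and -0.07 in WT10. MCM2, a subunit of the MCM ring, stood at 4874, 4266, 4083, 3045 and 2564 normalized counts in WT6 with rising dose, at 3650, 3458, 3205, 3020 and 2403 in WT10 and at 2949, 3013, 3195, 2843 and 3011 in MUT3. Its level went down at each step in both wild type clones, and its MUT3 libraries lay within the range of WT10. The slopes were -0.21 ± 0.025 (SE) in WT6 and -0.13 ± 0.025 in WT10, with adjusted p of 2.02e-05 and 0.00248, and -0.00 ± 0.025 in MUT3. MCM7, another ring subunit, stood at 9151, 8879, 7448, 6846 and 5147 in WT6, at 8199, 7660, 7271, 6674 and 5738 in WT10 and at 6857, 6750, 6922, 6573 and 6608 in MUT3. The wild type clones started above all MUT3 libraries and ended below them. MCM3, also of the ring, stood at 9366, 8818, 8112, 7112 and 6079 in WT6, at 7439, 7463, 7134, 6763 and 5580 in WT10 and at 5554, 5815, 5893, 5917 and 5972 in MUT3. It was the only gene of the group to go up at each step in MUT3, to 1.08 times the untreated level, with a slope there of 0.02 ± 0.021 that did not pass the test.

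The 6 subunits of the MCM ring form a complex with 1 copy of each, and all 6 fell in WT6, with slopes from -0.21 for MCM2 to -0.10 for MCM6. In WT10 MCM2, MCM3, MCM5 and MCM7 fell, while MCM4 had a slope of -0.05 ± 0.026 (adjusted p = 0.178) and MCM6 one of -0.04 ± 0.026 (adjusted p = 0.360). The slopes of MCM4 and MCM6 did not differ between WT6 and WT10 at the threshold (adjusted p of 0.0659 and 0.190). MCM10, which helps to activate the helicase, fell in WT6 (slope -0.26 ± 0.038) and in WT10 (-0.11 ± 0.037), in WT10 only through the library at 25 ng/ml, where it was at 0.698 times the untreated level after ratios above 1 at the lower doses. CDT1 and CDC45 fell in both clones as well, and CDC6 fell in WT6. Of the GINS complex GINS1 and GINS4 fell in WT6 and none in WT10, while GINS2 and GINS3 had slopes between -0.01 and 0.05 in all 3 clones. GINS4 had the lowest slope of the 47 genes in MUT3, -0.09 ± 0.028, from 2008 normalized counts untreated to 1513 at 25 ng/ml (limma, unadjusted p = 0.00398). Its WT6 slope was much the same, -0.10 ± 0.029 (limma, unadjusted p = 0.00502). Only the WT6 slope was called, because p was adjusted within each clone and 57.5% of all genes were called in WT6.

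**Figure D2:**
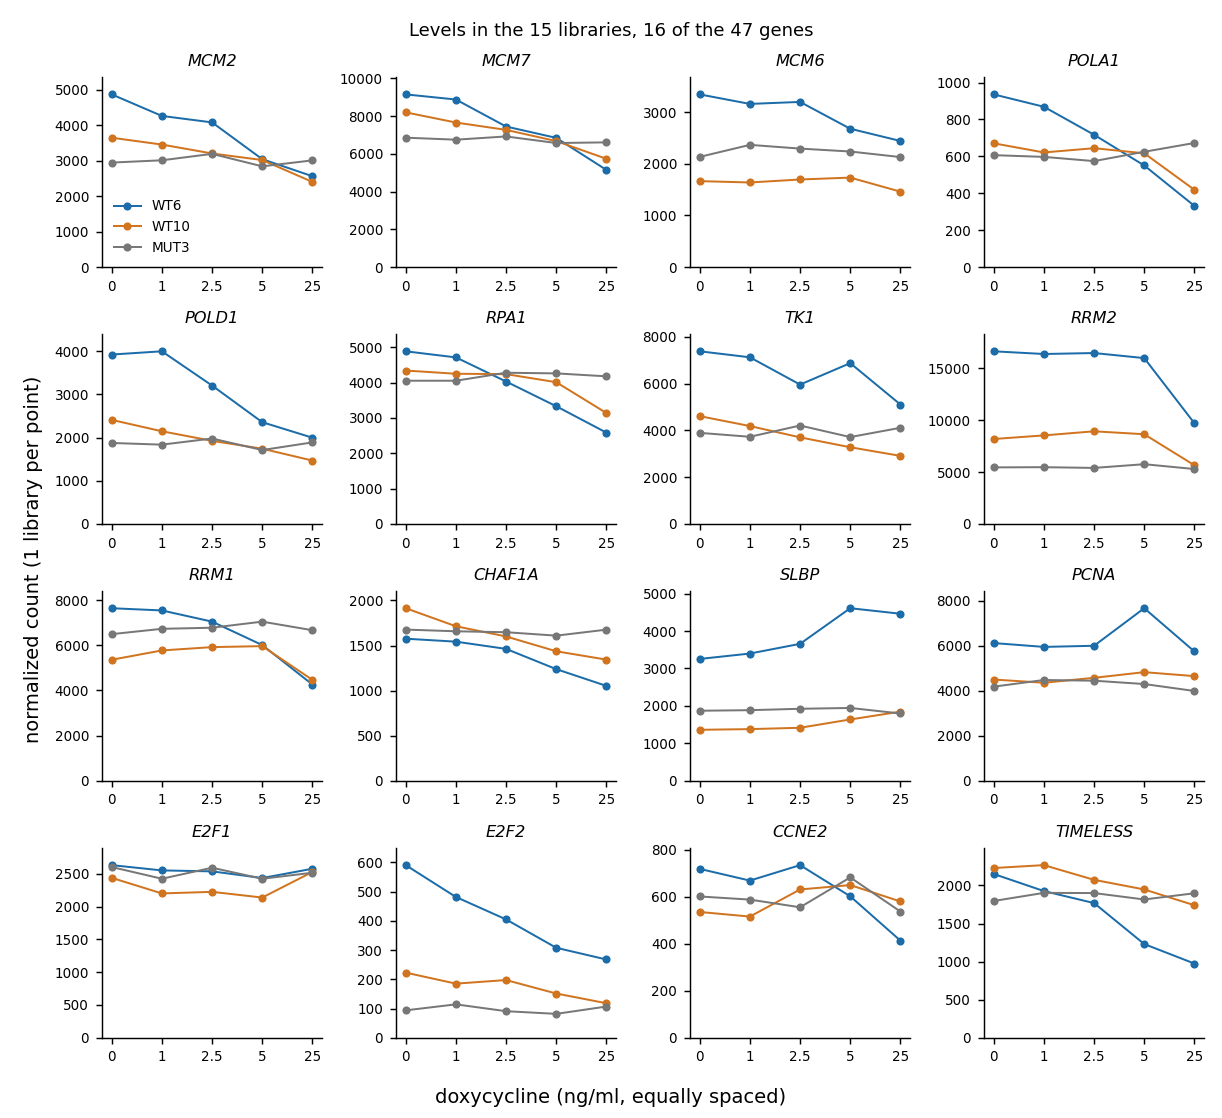
Normalized count (linear axis from 0) against doxycycline dose (ng/ml, equally spaced) for 16 of the 47 genes, with 1 library per point and lines joining the libraries of a clone. MCM2, MCM7, POLD1 and CHAF1A fell in both wild type clones, and SLBP rose in both. No MUT3 slope was called, and among these genes MUT3 varied most for E2F2 (highest 1.40 times the lowest) and CCNE2 (1.27 times).

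Synthesis at the fork. Of 16 genes, 8 fell in WT6 and 7 in WT10, against 28.3% and 9.83% of all genes, and 0 in MUT3. Median slopes were -0.09 in WT6 and -0.05 in WT10. POLA1, the catalytic subunit of polymerase alpha, which starts each new strand, stood at 936, 869, 717, 550 and 331 normalized counts in WT6, at 671, 621, 644, 617 and 419 in WT10 and at 607, 597, 574, 625 and 673 in MUT3. It had the lowest slope of the 47 genes in WT6, -0.33 ± 0.034 (adjusted p = 6.22e-06), and a slope of -0.14 ± 0.033 in WT10 (adjusted p = 0.00966). In WT10 only the library at 25 ng/ml lay below all MUT3 libraries. RPA1, the large subunit of the single-strand binding protein RPA, stood at 4886, 4714, 4031, 3331 and 2584 in WT6, at 4341, 4250, 4240, 4012 and 3139 in WT10 and at 4053, 4053, 4279, 4261 and 4178 in MUT3. In WT6 it was lower at each dose, and in WT10 most of its fall came between 5 and 25 ng/ml. POLD1, the catalytic subunit of polymerase delta, stood at 3924, 3999, 3206, 2357 and 1998 in WT6, at 2410, 2147, 1925, 1743 and 1468 in WT10 and at 1876, 1837, 1979, 1712 and 1889 in MUT3. In WT10 it went down at each step, and at 25 ng/ml it was below all MUT3 libraries. POLE, the catalytic subunit of polymerase epsilon, FEN1, which trims Okazaki fragments, and LIG1, which joins them, fell in both clones, to between 0.479 and 0.693 times the untreated level at 25 ng/ml in WT6 and between 0.621 and 0.696 in WT10.

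PCNA, the clamp that holds the polymerases on DNA, was not called in any clone. It stood at 6122, 5952, 6002, 7671 and 5749 normalized counts in WT6, at 4502, 4359, 4579, 4829 and 4653 in WT10 and at 4186, 4482, 4450, 4302 and 3993 in MUT3. Its slope was -0.00 ± 0.032 in WT6 and 0.02 ± 0.032 in WT10. Among the subunits of its loader in this group, RFC5 fell in WT6. RFC2, RFC3 and RFC4 had slopes of -0.07 to -0.01 in WT6 and -0.06 to -0.01 in WT10 that did not pass the test. RFC1, a further loader subunit, is counted below with the other replication genes. It fell in WT6, was not called in WT10, and its mean wild type slope was lower than its MUT3 slope.

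Nucleotide supply. All 4 genes fell in WT6, with slopes of -0.19 to -0.11, and RRM2 and TK1 fell in WT10, against 28.3% and 9.83% of all genes. TK1, thymidine kinase of the salvage pathway, stood at 7387, 7130, 5963, 6880 and 5110 normalized counts in WT6, at 4612, 4189, 3705, 3281 and 2913 in WT10 and at 3897, 3729, 4211, 3717 and 4114 in MUT3. It went down at every step in WT10, from above all MUT3 libraries to below them. RRM1, the large subunit of ribonucleotide reductase, stood at 7640, 7541, 7046, 6010 and 4263 in WT6, at 5359, 5771, 5918, 5962 and 4469 in WT10 and at 6493, 6728, 6777, 7046 and 6666 in MUT3. RRM2, its small subunit, stood at 16634, 16374, 16467, 15980 and 9702 in WT6, at 8184, 8531, 8925, 8643 and 5654 in WT10 and at 5450, 5468, 5399, 5756 and 5290 in MUT3. Both subunits were near or above the untreated level up to 5 ng/ml in WT10 and lower at 25 ng/ml, RRM1 at 0.834 and RRM2 at 0.691 of it. The WT10 call of RRM2 was at the edge of the threshold (adjusted p = 0.0497), and without the WT10 library at 25 ng/ml its slope there had the opposite sign, 0.04. TYMS, thymidylate synthase, fell in WT6 and had a slope of -0.08 ± 0.033 in WT10 (adjusted p = 0.112).

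Chromatin and histone mRNA. CHAF1A, the large subunit of CAF-1, which places histones on new DNA, stood at 1576, 1543, 1463, 1238 and 1053 normalized counts in WT6, at 1914, 1714, 1601, 1436 and 1344 in WT10 and at 1677, 1658, 1648, 1610 and 1676 in MUT3. It fell in both wild type clones, step by step, with slopes of -0.13 ± 0.024 and -0.11 ± 0.023. CHAF1B, its partner, stood at 876, 838, 911, 834 and 735 in WT6, at 526, 549, 525, 515 and 443 in WT10 and at 625, 577, 580, 561 and 536 in MUT3. It was below its untreated level at 25 ng/ml in all 3 clones, at 0.839, 0.843 and 0.858 of it, and passed the test in none.

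SLBP, the protein that binds the stem-loop at the end of histone mRNAs and is needed for their processing, moved the other way and was the only one of the 47 genes to rise in either clone. SLBP stood at 3255, 3399, 3658, 4609 and 4462 normalized counts in WT6, at 1363, 1381, 1417, 1639 and 1848 in WT10 and at 1872, 1887, 1924, 1946 and 1799 in MUT3. The slopes were 0.11 ± 0.026 in WT6 (adjusted p = 0.00263), 0.10 ± 0.028 in WT10 (adjusted p = 0.0181) and -0.01 ± 0.027 in MUT3. In WT10 it went up at every step. The WT10 call was lost without the library at 1 or at 25 ng/ml, and the WT6 slope was 0.02 (adjusted p = 0.259) after removal of the trends on length and GC content, while the WT10 slope was then 0.07 (adjusted p = 0.00273).

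G1/S regulators. E2F2, an activating E2F factor, stood at 591, 482, 405, 308 and 268 normalized counts in WT6, at 223, 185, 197, 151 and 118 in WT10 and at 93.8, 114, 90.9, 81.8 and 107 in MUT3. Its slopes were -0.26 ± 0.038 in WT6 and -0.19 ± 0.047 in WT10, the lowest of the 47 genes in WT10. All its WT10 libraries were above its MUT3 libraries. E2F1 stood between 2435 and 2631 in WT6, between 2137 and 2527 in WT10 and between 2424 and 2602 in MUT3, with slopes of -0.01 ± 0.025 in WT6 and 0.02 ± 0.025 in WT10. CCNE2, a cyclin E, stood at 719, 669, 735, 602 and 414 in WT6, at 536, 516, 631, 650 and 580 in WT10 and at 602, 588, 555, 683 and 537 in MUT3. It fell in WT6, though its slope without the WT6 libraries at 5 and 25 ng/ml was 0.01, and was not called in WT10, where 3 of the 4 dosed libraries were above the untreated one. CCNE1, the other cyclin E, stood at 327, 318, 358, 345 and 330 in WT6, at 286, 266, 306, 288 and 235 in WT10 and at 291, 373, 310, 318 and 345 in MUT3, with no order by dose in any clone.

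Fork protection, checkpoint and uracil repair. Of 6 genes, 5 fell in WT6 and 2, TIMELESS and UNG, in WT10, against 28.3% and 9.83% of all genes. TIMELESS, which holds the helicase and the polymerases together, stood at 2150, 1926, 1768, 1230 and 974 normalized counts in WT6, at 2229, 2266, 2073, 1947 and 1740 in WT10 and at 1796, 1902, 1900, 1816 and 1897 in MUT3. The untreated wild type libraries were alike, and at 25 ng/ml WT6 was at 0.453 and WT10 at 0.781 of that level. WDHD1, which links the helicase to polymerase alpha, stood at 2437, 2243, 2286, 1665 and 1065 in WT6, at 940, 1057, 978, 947 and 689 in WT10 and at 1206, 1241, 1154, 1253 and 1206 in MUT3. Its WT10 slope, -0.11 ± 0.038, missed the threshold (adjusted p = 0.0589). UNG, which cuts uracil out of DNA, stood at 2511, 2145, 2215, 2311 and 1309 in WT6, at 3519, 3557, 3284, 2884 and 2167 in WT10 and at 4041, 4131, 4110, 3983 and 3938 in MUT3. All wild type libraries of UNG were below all MUT3 libraries. CLSPN, which passes the checkpoint signal to CHK1, and DTL, which directs CDT1 to degradation, fell in WT6, with WT10 slopes of -0.06 ± 0.028 and -0.00 ± 0.026.

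Partners in a complex or family had unlike slopes in several cases. In WT6 the slope was -0.33 for POLA1 and -0.01 for POLA2, which binds it, -0.26 for TIMELESS and -0.00 for TIPIN, its partner, -0.21 for RPA1, -0.06 for RPA2 and 0.12 for RPA3, and -0.26 for E2F2 and -0.01 for E2F1. In WT10 the same genes had slopes of -0.14 and 0.02, -0.08 and 0.01, -0.10, -0.08 and 0.06, and -0.19 and 0.02. The differences between partners were not tested, and RPA1 and RPA2 changed order with the trends on length and GC content removed, as given below. In these groups the gene with the lowest slope in WT6 had the longest transcript, though RPA2 is shorter than RPA3: 5487 against 3544 bases for POLA1 and POLA2, 5158 against 1728 for TIMELESS and TIPIN, 4847 against 1584 and 2020 for RPA1, RPA2 and RPA3, and 5196 against 2690 for E2F2 and E2F1. For CAF-1 it was the reverse, with 3366 bases for CHAF1A, which fell, and 4466 for CHAF1B. Of the 14 genes with an E2F site in the promoter 11 fell in WT6 and 6 in WT10, with median slopes of -0.11 and -0.03. Of the 27 without one 17 and 12 fell, with medians of -0.11 and -0.08. The shares over all genes were 28.3% and 9.83%, and genes with and without a site were not compared by a test. Both MCM6 and MCM7 and both E2F1 and E2F2, shown above, hold such a site.

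Transcript length moved with these changes in WT6. At 5 ng/ml the rank correlation of the log2 ratio to untreated with transcript length was -0.763 across the 47 genes, and -0.573 across 12014 genes with a length; genes share their libraries, so this is a description. Of the 24 shorter members 13 were above the untreated level in that library, of the 23 longer ones 0. RPA3 was at 1.97 times its untreated level there. Over all genes the shortest of 5 equal length classes had a median log2 ratio of 0.60 there and the longest -0.42. At 25 ng/ml these medians were 0.59 and -0.46, with a correlation of -0.541 across the 47 genes. In WT10 at 25 ng/ml the correlation was -0.256 across the 47 genes and -0.135 across all genes, and in MUT3 at 25 ng/ml 0.247 and 0.0491. The part of RNA quality or library preparation in this was not tested.

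With trends on length and GC content removed from every library, 40 of the 47 genes fell in WT6 and 0 rose, against 31.6% of all genes that fell. In WT10 27 fell and 1 rose, against 20.8%. The further WT6 genes included PCNA, with a slope of -0.13 ± 0.015, RFC4, with -0.13 ± 0.019, TIPIN, with -0.09, and E2F1, with -0.06 ± 0.015. PCNA and E2F1 were not called in WT10 under this fit either (slopes of -0.03 and 0.03), whereas RFC4 fell there with -0.10 ± 0.020. RPA2 fell in both wild type clones, with -0.17 in WT6 and -0.12 in WT10, against -0.15 and -0.09 for RPA1. It was thus no longer above RPA1, while POLA1, TIMELESS and E2F2 stayed below POLA2, TIPIN and E2F1 in both clones. Beside SLBP, CDC6 lost its WT6 call under this fit, with a slope of -0.03 (adjusted p = 0.220). Without the WT6 library at 5 ng/ml and the trends left in, 34 of the 47 fell in WT6, against 3848 of all 12642 genes. Without both WT6 libraries at 5 and 25 ng/ml, an alternative added after the data were seen, limma called 0 of the 47 in WT6, where 16 had an unadjusted p under 0.05 and the median slope was -0.06, while 24 fell in WT10. Of all 12597 genes 52 then fell in WT6 and 2552 in WT10.

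Whether the change went with wild type RBM47 was addressed by the difference of the mean wild type slope and the MUT3 slope. It was lower at an adjusted p under 0.05 for 21 of the 47 genes and higher for SLBP, against 14.6% of all genes lower and 10.1% higher. By sign alone 39 of the 47 differences were below 0. The lowest adjusted p were those of POLA1, at -0.27 ± 0.040 (adjusted p = 0.00083), RPA1, at -0.17 ± 0.029, and TIMELESS, at -0.18 ± 0.033, while E2F2, at -0.23 ± 0.063, had the lowest difference after POLA1. MCM2, MCM3, MCM4, MCM5, MCM7 and MCM10 were among the 21. CLSPN, also among them, had a difference of -0.05 (adjusted p = 0.0878) with the trends on length and GC content removed. RRM2 (adjusted p = 0.0524) and CDC45 (adjusted p = 0.0533) fell in both wild type clones but missed the threshold here. MUT3 held less RBM47 mRNA than the wild type clones at each dose below 25 ng/ml, and its library at 25 ng/ml carried the count. Without that library limma called 0 of the 47, with 16 at an unadjusted p under 0.05, and 1 of all 12642 genes lower. The median difference of the 47 was then -0.101, against -0.091 with all libraries, so the calls were lost while the median did not shrink. Without the untreated MUT3 library 13 of the 47 were lower, without the WT10 library at 25 ng/ml 11, and without both WT6 libraries named above 13. Of all genes tested 768, 708 and 934 were lower in these fits. SLBP lost its call without the MUT3 library at 25 or 0 ng/ml or the WT10 library at 25 ng/ml.

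WT10 and MUT3 come from the same line, so their difference leaves the line out. FEN1, TK1, MCM3, POLA1 and MCM2 had lower slopes in WT10 than in MUT3, 5 of the 47 against 2.97% of all genes, with differences of -0.16 ± 0.036, -0.16 ± 0.039, -0.11 ± 0.030, -0.17 ± 0.046 and -0.13 ± 0.035. In all, 17 of the 47 differences had an unadjusted p under 0.05. The count of 5 became 0 without the WT10 library at 1 or 25 ng/ml or the MUT3 library at 0, 1 or 25 ng/ml, where 17, 8, 14, 17 and 5 genes had an unadjusted p under 0.05. Of all genes tested 131, 0, 51, 160 and 0 were lower in these fits. The count among the 47 was 2 without the WT10 library at 2.5 or the MUT3 library at 2.5 or 5 ng/ml. It was 10 without the WT6 library at 25 and 15 without the one at 5 ng/ml, against 569 of 12602 and 1278 of 12642 genes.

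The wild type clones differed in size of slope for a few genes. CCNE2, POLA1, TIMELESS and RPA1 had lower slopes in WT6 than in WT10, by -0.21 ± 0.057, -0.20 ± 0.047, -0.18 ± 0.039 and -0.11 ± 0.034, 4 of the 47 against 7.09% of all genes, and 37 of the 47 differences were below 0. With the trends on length and GC content removed the RPA1 difference was -0.06 (adjusted p = 0.0927). With the trends left in, the share was near that of all genes and is no result about the 47. With them removed 16 of the 47 differences were called lower, against 8.58% of all genes, so the count depended on the fit. With the trends left in and single libraries left out, the count ranged from 0 to 13. It was 0 without the WT6 library at 25 or the untreated WT10 library, with 11 and 5 genes at an unadjusted p under 0.05, and 13 without the WT6 library at 5 ng/ml. Of all genes tested 26, 26 and 1722 were lower in these 3 fits. The count among the 47 was 2 without either library at 1 ng/ml, 7 without the untreated WT6 library and 8 without the WT6 library at 2.5 or the WT10 library at 25 ng/ml.

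Levels without doxycycline, in normalized counts per kilobase of transcript, were in a similar order in the 3 clones. TYMS, TK1, RRM2 and PCNA were the highest of the 47 in WT6, at 5224, 5162, 5106 and 4798 per kilobase, and E2F2 the lowest, at 114. In WT10 TYMS led with 4351 before PCNA with 3528, and in MUT3 PCNA with 3280 before TYMS with 2938. TYMS, TK1 and RRM2 were close together in WT6, and 1 library does not order them. E2F2 was the lowest in each clone, with 42.9 per kilobase in WT10 and 18.1 in MUT3. Untreated WT6 was above untreated WT10 for 38 of the 47 genes, with a median ratio of 1.34 against 1.02 over all genes, and the libraries of all doses did not overlap for 18 genes with WT6 above and 2 with WT6 below, against 22.8% and 21.9% of all genes. SLBP was at 2.39 times the WT10 level and WDHD1 at 2.59 times. Untreated WT10 was above untreated MUT3 for 31 of the 47 genes, with a median ratio of 1.08 against 0.997 over all genes. The highest ratio was that of E2F2, at 2.38. Here 8 genes had every WT10 library above every MUT3 library and 8 every one below, against 16.6% and 20.4% of all genes, and 31 overlapped. With 1 clone of each kind these levels have no test.

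Genes of the same processes that are not among the 47 were counted in 3 further lists. Beside them, 28.3% of all genes tested fell and 29.2% rose in WT6, and 9.83% fell and 10.2% rose in WT10. Of 41 other replication genes 25 fell and 3 rose in WT6, 7 fell and 1 rose in WT10, and limma called 0 in MUT3, with 0 at an unadjusted p under 0.05. Of 16 other G1/S regulators tested 9 fell and 1 rose in WT6 and 6 fell and 2 rose in WT10. Of 25 genes of mitosis 23 fell in WT6 and 19 in WT10, with median slopes of -0.25 and -0.13 and a median of 0.02 in MUT3. Set beside them, the 47 genes had medians of -0.11, -0.06 and -0.01.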

How the data were processed

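RNA of 15 libraries (3 clones at 5 doxycycline doses, 1 library each, TruSeq after poly(A) selection, paired-end) had been mapped by the authors to hg19 with STAR and counted per gene with HTSeq 0.5.4 (default settings, per the labels and the methods). The deposited table holds a normalized signal, the HTSeq count divided by the DESeq size factor of the library, for 23368 genes and 5 tallies, which were left out of the tests (reads on no gene made up 56.5% to 59.6% of a library). Whole reads were recovered from 100% of the values (tolerance 0.01). Intervals of counting error are not given, since they would not cover variation between cultures.

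Groups came from the sample titles. The 47 genes, the gene lists and the tests were chosen with earlier results of these data known. The fit used limma 3.58.1 in R 4.3.3 with vooma precision weights, on log2(normalized count + 1), for 12644 genes with a mean of at least 10 in each clone. It had 6 coefficients, for each clone a level and its slope over log2(dose + 1), and 9 residual degrees of freedom, with Benjamini-Hochberg adjustment over all genes tested, and was tested on simulated data. Since the values are not raw counts, edgeR 4.0.16 and DESeq2 1.42.0 on the recovered reads were alternatives, beside other scalings, filters, pseudocounts, dose codings and left-out libraries. Transcript length and GC content came from GENCODE release 44 on hg19, matched for 85.0% of the table and all 47 genes, and their trends were removed as an alternative with splines of 4 degrees of freedom in 12014 genes. Named genes were those with the lowest adjusted p for the mean wild type slope minus the MUT3 slope, up to 3 in each role or list, and those that rose or differed between WT6 and WT10. Other genes named beside them complete a complex or pair and were chosen after their values were seen. Promoters were those of RefSeq (GRCh38.p14).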

Additional observations from a re-analysis of the deposited data

Results flagged for a closer look

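The following differences in slope between clones passed the test of the difference itself, each in log2(normalized count + 1) per unit of log2(dose + 1).

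WT6 had lower slopes than WT10 for CCNE2 (-0.21), POLA1 (-0.20), TIMELESS (-0.18) and RPA1 (-0.11). The RPA1 difference was not called with the trends on length and GC content removed (-0.057). WT10 had lower slopes than MUT3 for POLA1 (-0.17), TK1 (-0.16), FEN1 (-0.16), MCM2 (-0.13) and MCM3 (-0.11).

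The mean wild type slope was lower than the MUT3 slope for POLA1 (-0.27), E2F2 (-0.23), MCM10 (-0.20), POLD1 (-0.19), WDHD1 (-0.18), TIMELESS (-0.18), POLE (-0.17), MCM2 (-0.17), RPA1 (-0.17), UNG (-0.16), LIG1 (-0.16), TK1 (-0.14), FEN1 (-0.14), MCM7 (-0.14), MCM3 (-0.14), RRM1 (-0.13), CHAF1A (-0.12), MCM5 (-0.11), CLSPN (-0.11), CDT1 (-0.10) and MCM4 (-0.095). For SLBP it was higher (0.12). The 21 lower ones stood against 14.6% of all genes, and 0 were called without the MUT3 library at 25 ng/ml. With those trends removed the CLSPN difference was not called (-0.045). POLA1 is the only gene in all 3 sets. Its transcript is 5487 bases long, longer transcripts were lower in WT6 at 5 and 25 ng/ml, and its WT6 slope was -0.25 with those trends removed.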

How the results depend on the processing

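limma counted 32 genes that fell in WT6, 20 in WT10 and 0 in MUT3, with 21 lower in the mean wild type than in MUT3, 5 lower in WT10 than in MUT3 and 4 lower in WT6 than in WT10. With log2 RBM47 count in place of the dose each count was 0, with 21, 13, 1, 16, 4 and 0 at an unadjusted p under 0.05, and with any doxycycline against none each was 0, with 2, 1, 0, 0, 0 and 0. Of all 12644 genes these 2 fits called at most 13 lower, those in WT10 with the RBM47 count. Leaving out all libraries of the highest dose gave 18, 0, 0, 0, 0 and 0, with 25, 13, 1, 10, 3 and 11 at an unadjusted p under 0.05. In that fit 2274 of all 12588 genes fell in WT6 and 3 in WT10, and 0 were lower in any difference. Without the WT6 libraries at 5 and 25 ng/ml, added after the data were seen, the counts among the 47 were 0, 24, 0, 13, 17 and 0, and with each clone fitted alone 21 in WT6, 21 in WT10 and 1 in MUT3. Without those 2 libraries 52 of all 12597 genes fell in WT6 and 2552 in WT10. The mean wild type slope was then lower than that of MUT3 for 934 and the WT10 slope for 1705. With each clone fitted alone 1960, 1825 and 61 of all 12644 genes fell. The WT10 minus MUT3 count was 3 without the filter or with TMM, 2 with scaling to total reads or with edgeR, 1 without weights or with the dose in ng/ml, 0 with the order of the dose (18 at an unadjusted p under 0.05), 11 with DESeq2 and 18 with trends on length and GC content removed. Over all genes this difference was lower for 2.97% with limma and the trends left in, and for 11.2% with them removed. With DESeq2 it was lower for 563 of 12644. The WT6 minus WT10 count was 7 with scaling to total reads, 8 with DESeq2, 16 with those trends removed (against 8.58% of all genes) and 0 with the dose in ng/ml (9 at an unadjusted p under 0.05). Scaling to total reads gave 1107 of all 12680 genes lower there, DESeq2 1183 and the dose in ng/ml 125 of 12644. Leaving out each library in turn gave 15 to 34 in WT6, 0 to 22 in WT10, 0 to 0 in MUT3, 0 to 25, 0 to 15 and 0 to 13. The causes of these shifts were not tested, and the fits with fewer libraries also had fewer doses. Signs changed for RRM2 in WT10 (0.0365 without the libraries at 25 ng/ml, and -0.178 to 0.0365 with each library left out in turn) and for CCNE2 in WT6 (0.0130 without the WT6 libraries at 5 and 25 ng/ml). Pseudocounts of 0.5 and 5 and a filter at a mean of 50 changed no count by over 1.5 times, nor any call among the 51 slopes of named genes. No paired analysis was possible because each clone and dose has 1 library.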

Other observations

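Of the 25 genes of mitosis, 23 fell in WT6 and 19 in WT10, against 28.3% and 9.83% of all genes. MAD2L1 and UBE2C were called in neither clone. CENPF, a kinetochore protein, stood at 6421, 5721, 4207, 2947 and 1650.5 normalized counts in WT6, at 5514, 6088, 5470, 5080 and 3039 in WT10 and at 5045, 5037, 5059, 5507 and 5629 in MUT3, and fell in both wild type clones (slopes of -0.44 ± 0.037 and -0.20 ± 0.036). PRC1, which bundles the spindle midzone, had slopes of -0.30 and -0.15, and PLK1, a mitotic kinase, -0.24 and -0.15. For all 3 the difference of the mean wild type slope from MUT3 passed the test, at -0.36, -0.27 and -0.23. In MUT3 the 3 genes had slopes of 0.04.

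Among other G1/S regulators, TFDP1, the partner of E2F factors, stood at 3015, 2911, 2546, 2206 and 1456 in WT6, at 4082, 3999, 3766, 3443 and 2783 in WT10 and between 4263 and 4431 in MUT3. CDK2, the kinase of cyclin E, had slopes of -0.12 in both wild type clones, and CDC25A, which activates it, -0.21 and -0.09. Among other replication genes, MTBP, which takes part in origin firing, fell in WT6 (-0.39) and WT10 (-0.23), as did POLD3 (-0.25 and -0.12), a subunit of polymerase delta. POLD4, the smallest subunit of polymerase delta, rose instead, from 731 to 992, 1127, 2778 and 5315 in WT6 and from 745 to 1563 at 25 ng/ml in WT10, and lay between 441 and 561 in MUT3. Its slopes were 0.65 ± 0.057, 0.25 ± 0.060 and 0.01 ± 0.066, and the WT6 slope was higher than that of WT10 by 0.40 (limma, adjusted p = 0.0148).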
